A study of Homo sapiens with 27 samples.

Results

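The comparison described here was between CPSF1 sh1 and CPSF1 sh2, the hairpins used against the same mRNA, in LNCaP95 prostate cancer cells. Its members were the 6 count columns labelled LNCaP95 CPSF1 sh1 and LNCaP95 CPSF1 sh2, with 3 biological replicates (BR) of each, out of 27 RNA-seq libraries in the series. The series holds 9 groups, made of 3 prostate cancer cell lines (LNCaP, LNCaP95 and 22Rv1) that each carried CTRL sh, CPSF1 sh1 or CPSF1 sh2. All of the LNCaP95 cells used here had been infected with pGIPZ lentivirus that encodes a short hairpin RNA (shRNA) and were selected with puromycin, so each group was a selected pool of infected cells rather than a clone. CTRL sh is a non-targeting hairpin in the same vector. Its 3 LNCaP95 libraries were used to tell which of the CPSF1 hairpins had moved a gene, and they also entered the filter on low counts, the scaling and the shared estimate of spread. With the 6 CPSF1 sh libraries fitted alone, 2270 genes were higher and 2273 lower with CPSF1 sh2. Cells were seeded at 500000 per well and grown for 72 h before RNA was taken. LNCaP95 is a hormone-insensitive derivative of LNCaP, and the paper lists its medium as phenol red-free and supplemented with fetal bovine serum.

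CPSF1 encodes the largest subunit of the cleavage and polyadenylation specificity factor, which recognises the poly(A) signal of a nascent transcript so that the transcript can be cut and given its poly(A) tail. An shRNA is processed by DGCR8 and DROSHA, exported by XPO5, trimmed by DICER1 and loaded into an Argonaute protein, which then silences mRNAs that pair with it. A pair of hairpins against the same gene share their intended target and differ in sequence. Their comparison at a like level of the target describes genes whose level differs between the cells that carry them. Each hairpin was carried by its own infected and selected cells, so hairpin and pool of cells cannot be told apart here. Below, a gene moved by a hairpin is one that differed from CTRL sh in the cells with that hairpin. All differences below are CPSF1 sh2 minus CPSF1 sh1 on the log2 scale, so that a negative value means lower with CPSF1 sh2.

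CPSF1 mRNA was first compared, since it is the target of both hairpins (GRCh37, chromosome 8, 145618444 to 145634753, minus strand). Normalised read counts (CPM, counts scaled by library size and TMM factor) were 127.5, 97.0 and 116.9 in the CTRL sh libraries. They were 68.2, 57.1 and 58.7 with CPSF1 sh1, and 61.7, 63.9 and 58.8 with CPSF1 sh2. The libraries of the hairpins overlapped, and all 6 lay below the CTRL sh libraries. The difference was 0.00041 (standard error (SE) 0.084, 95% interval -0.17 to 0.18, adjusted p = 0.998). Against CTRL sh, CPSF1 fell by 0.89 with each hairpin (adjusted p = 3.82e-09 with CPSF1 sh1 and 3.06e-09 with CPSF1 sh2). A difference in CPSF1 mRNA larger than that interval was thus not detected, while CPSF1 protein was not analysed here. CPSF1 sh1 libraries were deeper, at 12744820 to 15904518 counts, than CPSF1 sh2 libraries, at 10698843 to 12019513 counts. Mitochondrially encoded mRNAs took 1.49 to 1.63% of counts with CPSF1 sh1 and 1.62 to 1.75% with CPSF1 sh2. All 10 luminal prostate markers were expressed, and their summed level was 5160 to 5177 CPM with CPSF1 sh1, and 4847 to 4905 CPM under CPSF1 sh2. Of the markers of other cell types, PDGFRA, LUM and DCN of fibroblasts had 0 counts in all 9 LNCaP95 libraries, although COL1A1 was at 43.1 to 69.5 CPM and gave nearly all of a fibroblast sum of 55.2 to 60.8 CPM with CPSF1 sh1 that was 44.9 to 47.9 CPM under CPSF1 sh2. The markers KRT5, TP63, CHGA, CHGB, CD3E, PTPRC, CDH5 and KDR reached at most 0.28 CPM. The summed leukocyte markers were 17.1 to 21.0 CPM with CPSF1 sh1, and 32.0 to 36.3 CPM under CPSF1 sh2, of which CD68, a lysosomal protein that is not limited to leukocytes, reached up to 34.7 CPM. The summed basal markers were 2.93 to 4.40 CPM with CPSF1 sh1, and 6.21 to 8.13 CPM under CPSF1 sh2, with KRT14 and KRT15 giving nearly all of it. Endothelial markers summed to 2.02 to 3.14 and 2.75 to 4.38 CPM, nearly all of it VWF. The part of these in the results was not tested.

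Despite the like level of CPSF1, many genes differed between the hairpins, most of them by a small amount. Of 11143 genes with more than 2 CPM in all 9 LNCaP95 libraries, 1834 (16.5%) were higher and 1967 (17.7%) were lower with CPSF1 sh2 at an adjusted p below 0.05 (edgeR's quasi-likelihood test with Benjamini-Hochberg adjustment). The median size of a called difference was 0.22 among higher genes and 0.28 among lower genes. A difference of over 2-fold was seen in 7 higher and 15 lower genes, and one of over 1.5-fold in 76 and 173. The libraries of the hairpins did not overlap in 1782 of the higher and 1903 of the lower genes, and in 49.3% of all genes tested. Thinning every library to the depth of the smallest gave 1658 higher and 1832 lower genes, and 87.6% of the calls made at full depth were kept. Leaving out CPSF1 sh2 replicate 3 gave 1220 higher and 1379 lower genes, the lowest counts for any library left out.

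Against CTRL sh, 7395 genes (66.4%) were called with CPSF1 sh1 and 8181 (73.4%) with CPSF1 sh2. These comparisons share the CTRL sh libraries, and each shares CPSF1 libraries with the difference between hairpins, so the classes that follow describe where the groups lay and are not independent tests. Of the 1834 genes higher with CPSF1 sh2, 1163 were above CTRL sh with both hairpins and went further with CPSF1 sh2. A further 406 were above CTRL sh with CPSF1 sh2 alone, and 127 were below CTRL sh with CPSF1 sh1 alone. Of the 1967 genes lower with CPSF1 sh2, 1312 were below CTRL sh with both hairpins, 377 were below it with CPSF1 sh2 alone, and 135 were above it with CPSF1 sh1 alone. The larger move belonged to CPSF1 sh1 in 58 higher genes that lay below CTRL sh with both hairpins and in 58 lower genes that lay above it with both. The hairpins moved 12 higher and 13 lower genes in opposite directions from CTRL sh.

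**Figure D1:**
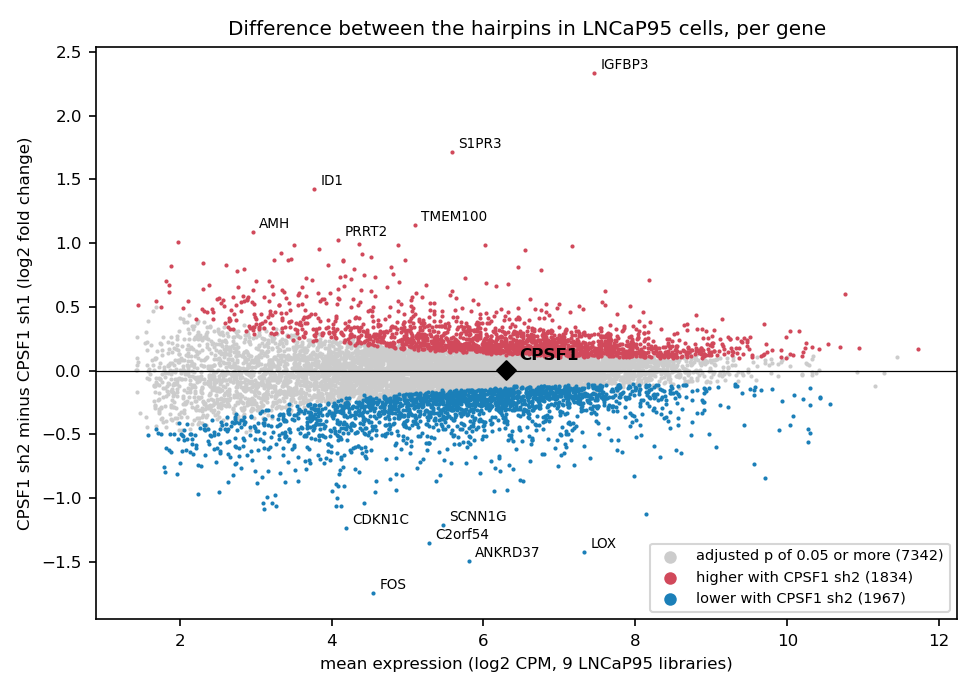
Each point is 1 of the 11143 genes tested, with mean expression in log2 CPM on the x axis and the CPSF1 sh2 minus CPSF1 sh1 log2 fold change on the y axis. The 1834 genes called higher with CPSF1 sh2 are red, the 1967 called lower are blue, the 6 largest of each are named, and CPSF1 (black diamond) lies at 0.00041.

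Targets of hypoxia-inducible factor (HIF) were lower with CPSF1 sh2 as a group. HIF is a transcription factor made of an oxygen-regulated alpha subunit (HIF1A or EPAS1) and ARNT, and it binds hypoxia response elements whose core reads ACGTG or GCGTG. Of 27 HIF targets outside glycolysis that were tested, 25 were lower and 1 was higher with CPSF1 sh2, with a median of -0.60, where 17.7% of all genes were lower and the median of all genes was -0.0044. RefSeq promoters (250 bases before to 50 after the start of the gene, the outermost where RefSeq gives several, GRCh38.p14) were at hand for 19 of the 27, and 14 of them held an ACGTG or GCGTG on either strand. The same holds for 65.1% of the promoters of genes tested and 48.4% of all 27305 promoters, so the motif is common. The promoters of the 4 lower HIF targets with the largest differences among those that hold the motif are shown, with every match on either strand in capitals, so that a run such as CACGTG covers a pair of overlapping matches. They lie at chr4:185396591-185396890 on the plus strand (ANKRD37), chr5:122078210-122078509 on the minus strand (LOX), chr1:203026241-203026540 on the plus strand (PPFIA4) and chr3:146161135-146161434 on the minus strand (PLOD2).
ANKRD37: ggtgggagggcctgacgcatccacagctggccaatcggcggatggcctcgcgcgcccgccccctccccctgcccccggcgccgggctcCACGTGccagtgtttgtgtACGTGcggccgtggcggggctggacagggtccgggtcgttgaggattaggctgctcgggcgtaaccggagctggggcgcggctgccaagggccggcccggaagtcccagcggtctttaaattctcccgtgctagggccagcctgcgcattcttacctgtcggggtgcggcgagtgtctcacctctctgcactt
LOX: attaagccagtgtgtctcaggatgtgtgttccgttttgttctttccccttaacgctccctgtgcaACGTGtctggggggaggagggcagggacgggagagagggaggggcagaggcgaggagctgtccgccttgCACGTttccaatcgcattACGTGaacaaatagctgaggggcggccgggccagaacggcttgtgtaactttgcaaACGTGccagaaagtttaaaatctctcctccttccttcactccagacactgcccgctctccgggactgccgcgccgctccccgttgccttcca
PPFIA4: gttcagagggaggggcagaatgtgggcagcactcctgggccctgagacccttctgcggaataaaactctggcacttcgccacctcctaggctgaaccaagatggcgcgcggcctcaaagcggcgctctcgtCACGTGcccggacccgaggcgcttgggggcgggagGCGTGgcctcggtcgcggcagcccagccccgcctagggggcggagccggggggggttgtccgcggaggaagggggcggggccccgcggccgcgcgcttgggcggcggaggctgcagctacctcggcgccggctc
PLOD2: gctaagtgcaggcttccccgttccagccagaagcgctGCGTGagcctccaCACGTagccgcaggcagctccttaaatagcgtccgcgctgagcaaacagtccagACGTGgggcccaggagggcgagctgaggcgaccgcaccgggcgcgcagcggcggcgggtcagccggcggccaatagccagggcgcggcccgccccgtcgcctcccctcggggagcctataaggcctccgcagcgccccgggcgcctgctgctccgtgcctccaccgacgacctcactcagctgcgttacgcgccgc

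ANKRD37, an ankyrin repeat protein induced by hypoxia, was at 163.0, 126.3 and 136.6 CPM with CTRL sh, at 20.5, 24.8 and 17.4 CPM with CPSF1 sh1 and at 8.37, 7.99 and 5.91 CPM with CPSF1 sh2. The 3 groups did not overlap, and the hairpins differed by -1.50 (SE 0.16, adjusted p = 7.31e-07). LOX, the lysyl oxidase that crosslinks collagen, was at 117.5, 129.6 and 114.2 CPM with CPSF1 sh1 and at 44.0, 49.98 and 40.5 CPM with CPSF1 sh2, against 307.3 to 333.5 CPM with CTRL sh. That is a difference of -1.42 (SE 0.067, adjusted p = 5.90e-12), or 2.68-fold lower with CPSF1 sh2. NDUFA4L2, a HIF-induced relative of a cytochrome oxidase subunit, differed by -0.94 (adjusted p = 1.12e-05). VEGFA, the main angiogenic growth factor, was at 563.1 to 653.8 CPM with CPSF1 sh1 and at 325.7 to 395.0 CPM with CPSF1 sh2, below 1225 to 1338 CPM with CTRL sh. Its difference was -0.73 (SE 0.063, adjusted p = 4.59e-08). Carbonic anhydrase CA9, which acidifies the space outside hypoxic cells, differed by -0.61 (SE 0.12, adjusted p = 4.66e-04). PDK1, a kinase that inhibits pyruvate dehydrogenase, differed by -0.59 (SE 0.059, adjusted p = 3.58e-07). Each of these genes was lower than CTRL sh with both hairpins, and over the list the median was -0.97 with CPSF1 sh1 and -1.57 with CPSF1 sh2 against the same CTRL sh libraries. The only member that was higher with CPSF1 sh2 was JMJD6, at 59.0 to 60.2 CPM with CPSF1 sh1, and 63.2 to 69.2 CPM under CPSF1 sh2 (0.16, adjusted p = 0.028), and RAB20 (-0.08) did not pass the test.

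Of 6 HIF subunits and regulators tested, 1 was higher and 1 was lower with CPSF1 sh2. That is 16.7% in each direction, near the 16.5% higher and 17.7% lower of all genes. HIF1A was at 223.7, 231.1 and 237.8 CPM with CPSF1 sh1 and at 292.3, 287.5 and 301.0 CPM with CPSF1 sh2, a difference of 0.35 (SE 0.042, adjusted p = 3.56e-06). CTRL sh libraries held 295.1 to 319.7 CPM. HIF1A thus lay below CTRL sh with CPSF1 sh1 (-0.43, adjusted p = 1.74e-08), while CPSF1 sh2 was not called against CTRL sh (-0.08, adjusted p = 0.091). ARNT was 0.12 lower with CPSF1 sh2, and EPAS1 (0.06), VHL (0.13), HIF1AN (0.10) and EGLN2 (-0.10) did not pass the test.

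Glycolysis turns glucose into pyruvate and lactate, and several of its enzymes have isoforms that HIF induces. Of 19 genes of glucose import and glycolysis tested, 11 (57.9%) were lower and 0 were higher with CPSF1 sh2 (median -0.19). Over all genes 17.7% were lower. The differences were largest in ALDOC, an aldolase, in ENO2, an enolase, and in PFKFB4, which sets the level of an activator of phosphofructokinase. ALDOC was at 212.4, 215.5 and 198.1 CPM with CPSF1 sh1 and at 95.6, 104.4 and 86.0 CPM with CPSF1 sh2, against 490.4 to 594.6 CPM with CTRL sh (-1.13, SE 0.068, adjusted p = 2.65e-10). ENO2 was at 54.1 to 69.4 CPM with CPSF1 sh1 and at 29.4 to 38.5 CPM with CPSF1 sh2 (-0.87, SE 0.094, adjusted p = 8.76e-07). PFKFB4 differed by -0.75 (SE 0.081, adjusted p = 8.09e-07). In all 3 genes the groups did not overlap and both hairpins lay below CTRL sh. Hexokinase HK2, which commits glucose to the pathway, differed by -0.50 (SE 0.045, adjusted p = 8.96e-08), and the lactate dehydrogenase LDHA by -0.14 (SE 0.040, adjusted p = 0.012). GAPDH (-0.01, 95% interval -0.097 to 0.074), ENO1 (-0.02), PKM (-0.02), PGAM1 (0.01), TPI1 (0.08), HK1 (0.08), PFKL (-0.13) and the glucose transporter SLC2A1 (-0.16) did not pass the test, although GAPDH was 0.63 and 0.64 below CTRL sh with CPSF1 sh1 and CPSF1 sh2. The promoters of 15 of 19 glycolysis genes (78.9%) held the HIF motif, where 65.1% of the promoters of genes tested did. GAPDH, ENO1 and PKM, which were not called, held it too. The promoters of ALDOC (chr17:28576846-28577145, minus strand) and ENO2 (chr12:6914330-6914629, plus strand) also held it and are shown, since these genes had the largest differences.
ALDOC: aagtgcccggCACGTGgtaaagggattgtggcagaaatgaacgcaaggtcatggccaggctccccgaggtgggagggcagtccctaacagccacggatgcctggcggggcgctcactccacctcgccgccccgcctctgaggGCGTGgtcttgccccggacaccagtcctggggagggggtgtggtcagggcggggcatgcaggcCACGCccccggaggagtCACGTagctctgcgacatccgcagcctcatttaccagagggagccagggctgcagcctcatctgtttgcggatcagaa
ENO2: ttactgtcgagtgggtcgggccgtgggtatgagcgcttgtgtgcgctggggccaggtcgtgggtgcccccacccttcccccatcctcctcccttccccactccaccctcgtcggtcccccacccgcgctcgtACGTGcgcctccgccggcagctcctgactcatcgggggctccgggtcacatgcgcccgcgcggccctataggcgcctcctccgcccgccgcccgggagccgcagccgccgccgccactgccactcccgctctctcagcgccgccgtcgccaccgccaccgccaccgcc

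The amino acid response is run by ATF4, a transcription factor that is translated when amino acids are short and that induces amino acid transporters, synthetases and the stress genes DDIT3 and TRIB3. Of 21 genes tested, 19 (90.5%) were lower and 0 were higher with CPSF1 sh2 (median -0.33), against 17.7% of all genes lower. CTH, which makes cysteine, was at 44.6, 45.6 and 41.2 CPM with CPSF1 sh1 and at 24.7, 28.8 and 26.0 CPM with CPSF1 sh2, against 90.8 to 95.2 CPM with CTRL sh (-0.72, SE 0.068, adjusted p = 1.63e-07). NUPR1, a stress-induced chromatin protein, was at 245.6 to 256.2 CPM and at 150.4 to 171.8 CPM (-0.65, SE 0.046, adjusted p = 3.34e-09). CHAC1, which degrades glutathione, was at 23.3 to 26.0 CPM and at 15.8 to 16.8 CPM (-0.63, SE 0.093, adjusted p = 4.02e-05). None of these groups overlapped, and all were below CTRL sh with both hairpins. ASNS, which makes asparagine, differed by -0.43 (SE 0.040, adjusted p = 1.59e-07), and DDIT3, a pro-apoptotic transcription factor, by -0.50 (SE 0.046, adjusted p = 1.27e-07). ATF4 mRNA itself differed by -0.14 (SE 0.038, adjusted p = 0.0090). The amino acid transporter subunits SLC7A5 (-0.29) and SLC3A2 (0.08) did not pass the test. The ATF4 binding motif was searched as TGATGNAAN on both strands. It was found in the promoters of 4 of 19 members with a RefSeq promoter, and in 1.5% of the promoters of genes tested. All 4 were called lower, but so were 17 of the 19, so the calls cannot show a link with the motif. The promoter of CHAC1, with the largest difference of the 4, lies at chr15:40953221-40953520 on the plus strand.
CHAC1: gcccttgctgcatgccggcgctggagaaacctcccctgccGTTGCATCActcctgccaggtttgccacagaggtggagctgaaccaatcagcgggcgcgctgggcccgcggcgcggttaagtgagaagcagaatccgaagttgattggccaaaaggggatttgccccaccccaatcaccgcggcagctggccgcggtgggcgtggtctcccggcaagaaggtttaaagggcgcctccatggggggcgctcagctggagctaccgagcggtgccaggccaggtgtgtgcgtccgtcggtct

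Serine and folate one-carbon enzymes, some of which ATF4 also induces, had 6 of 10 members lower (60.0%) and 1 higher (10.0%). The shares over all genes were 17.7% lower and 16.5% higher. ALDH1L2, a mitochondrial formyltetrahydrofolate dehydrogenase, differed by -0.50 (SE 0.11, adjusted p = 0.0012), followed by MTHFD2 at -0.25 and PSAT1 at -0.18. MTHFD1, the cytosolic enzyme, was 0.15 higher with CPSF1 sh2 (adjusted p = 0.010). Of 20 cytosolic aminoacyl-tRNA synthetases, which charge tRNAs with amino acids, 8 were lower and 4 were higher (median -0.08), from DARS at -0.36 to FARSA at 0.23.

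Cholesterol and fatty acid synthesis are under the control of SREBF2 and SREBF1, membrane-bound transcription factors that are released when sterols are low. Of 25 cholesterol genes tested, 11 (44.0%) were lower and 2 (8.0%) were higher with CPSF1 sh2 (median -0.09). Over all genes 17.7% were lower and 16.5% higher. STARD4, a sterol carrier, was at 30.8, 32.8 and 36.0 CPM with CPSF1 sh1 and at 18.3, 18.7 and 17.4 CPM with CPSF1 sh2, against 68.8 to 75.3 CPM with CTRL sh (-0.87, SE 0.079, adjusted p = 1.02e-07). INSIG1, which holds the SREBF proteins in the endoplasmic reticulum, was at 211.1 to 241.7 CPM and at 119.6 to 132.7 CPM (-0.83, SE 0.057, adjusted p = 2.36e-09). TM7SF2, a sterol reductase, differed by -0.46 (adjusted p = 3.27e-04). For all 3 genes the groups did not overlap and both hairpins lay below CTRL sh. SREBF2 differed by -0.22 (adjusted p = 7.65e-04). In fatty acid synthesis, 6 of 15 genes were lower and 1 was higher. SCD, which introduces the first double bond, was at 1007 to 1092 CPM with CPSF1 sh1 and at 732.6 to 757.4 CPM with CPSF1 sh2 (-0.49, SE 0.041, adjusted p = 3.22e-08), followed by ACSS2 (-0.39) and MID1IP1 (-0.37), while the elongase ELOVL6 was 0.19 higher. The sterol response motif, searched as TCACNCCAC on both strands, was found in 1 of 19 promoters of the cholesterol list and in 1.1% of those of genes tested. That promoter belongs to SREBF2, at chr22:41832855-41833154 on the plus strand.
SREBF2: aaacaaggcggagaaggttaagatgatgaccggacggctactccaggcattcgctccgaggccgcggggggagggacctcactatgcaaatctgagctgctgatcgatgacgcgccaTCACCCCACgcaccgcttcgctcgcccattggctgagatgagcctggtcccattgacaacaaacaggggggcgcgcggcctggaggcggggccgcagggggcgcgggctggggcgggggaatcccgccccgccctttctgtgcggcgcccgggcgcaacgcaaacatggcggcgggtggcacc

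Genes of proliferation moved in different directions by cell cycle phase. Genes of G1/S and DNA replication were higher with CPSF1 sh2 in 25 of 37 tested, where 16.5% of all genes were higher, and lower in 2 (median 0.20). CLSPN, a replication checkpoint adaptor, was at 27.1, 31.2 and 31.1 CPM with CPSF1 sh1 and at 42.1, 41.4 and 42.7 CPM with CPSF1 sh2, above 8.03 to 10.4 CPM with CTRL sh (0.50, SE 0.074, adjusted p = 3.66e-05). E2F2, a transcription factor of S phase entry, differed by 0.46 (adjusted p = 3.36e-04) and cyclin CCNE2 by 0.43 (adjusted p = 1.68e-04). All 3 were above CTRL sh with both hairpins, with no overlap between groups. The members that were lower were cyclin CCND1 (-0.15) and RFC4, a subunit of the clamp loader (-0.15), both of which were called above CTRL sh with CPSF1 sh1 and not with CPSF1 sh2. All 6 subunits of the MCM helicase, MCM2 to MCM7, were higher, by 0.25 to 0.35.

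Genes of G2/M and mitosis were lower in 12 of 29 tested (41.4%) and higher in 0 (median -0.11), where 17.7% of all genes were lower. HMMR, a spindle protein, was at 105.2, 123.9 and 115.8 CPM with CPSF1 sh1 and at 90.2, 91.2 and 89.2 CPM with CPSF1 sh2, against 170.8 to 196.6 CPM with CTRL sh (-0.35, SE 0.060, adjusted p = 1.88e-04). BUB1, a kinase of the spindle checkpoint, differed by -0.33 (adjusted p = 3.42e-05) and DLGAP5, a mitotic spindle protein, by -0.30 (adjusted p = 3.43e-04). The groups of these 3 genes did not overlap. MKI67 (0.09), CDK1 (-0.05), CCNB1 (-0.07), PLK1 (0.02) and TOP2A (-0.09) did not pass the test. Many mitotic promoters hold a cell cycle homology region, whose core was searched as TTTGAA on both strands. It was found in 16 of 24 members with a RefSeq promoter, against 9.3% of the promoters of genes tested, and in 7 of the 11 called lower. Members that were not called, such as CDK1, PLK1, TOP2A and MKI67, held it too, so the calls cannot show a link with the motif. The promoters of HMMR (chr5:163460382-163460681, plus strand) and DLGAP5 (chr14:55191536-55191835, minus strand) are shown, as the called members with the largest differences among those that hold it.
HMMR: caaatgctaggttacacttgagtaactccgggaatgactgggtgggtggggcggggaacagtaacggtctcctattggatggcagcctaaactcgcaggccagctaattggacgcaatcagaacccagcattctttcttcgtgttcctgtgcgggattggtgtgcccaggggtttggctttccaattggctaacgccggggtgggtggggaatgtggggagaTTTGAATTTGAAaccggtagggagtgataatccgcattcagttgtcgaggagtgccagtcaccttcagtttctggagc
DLGAP5: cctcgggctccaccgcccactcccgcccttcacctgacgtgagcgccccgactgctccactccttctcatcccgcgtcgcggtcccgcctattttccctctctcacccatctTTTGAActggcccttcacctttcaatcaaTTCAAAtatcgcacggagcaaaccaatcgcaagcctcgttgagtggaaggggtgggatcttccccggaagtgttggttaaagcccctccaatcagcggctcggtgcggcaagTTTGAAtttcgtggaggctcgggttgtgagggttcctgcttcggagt

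Of 26 genes of ribosome biogenesis, 18 (69.2%) were higher and 0 were lower with CPSF1 sh2 (median 0.19). Over all genes 16.5% were higher, and 27.5% in the fifth of genes with the highest expression. UTP20, which processes ribosomal RNA, was at 62.3 to 67.6 CPM with CPSF1 sh1 and at 79.5 to 83.3 CPM with CPSF1 sh2 (0.33, SE 0.066, adjusted p = 7.55e-04), followed by NOP56 (0.31) and POLR1A (0.29). MYC, which drives this programme in many cells, differed by -0.08 and did not pass the test. Of 33 SR proteins and hnRNPs, which bind RNA and steer splicing, 22 (66.7%) were higher and 1 was lower (median 0.15). HNRNPDL was at 140.6 to 148.7 CPM with CPSF1 sh1 and at 197.4 to 208.2 CPM with CPSF1 sh2, above 117.6 to 137.2 CPM with CTRL sh (0.48, SE 0.049, adjusted p = 3.54e-07). HNRNPM (0.39) and SRSF1 (0.38) followed, and HNRNPUL2 was 0.12 lower.

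Proteasome subunits, which degrade ubiquitin-tagged proteins, were higher in 17 of 35 (48.6%) and lower in 0 (median 0.13). The share higher was 16.5% over all genes and 27.5% in the fifth of highest expression. The largest rises were in PSMC2 (0.22), PSMD2 (0.21) and PSMD1 (0.20). The median of proteasome subunits against CTRL sh was 0.0029 with CPSF1 sh1 and 0.13 with CPSF1 sh2. Heat shock genes were higher in 7 of 15 (46.7%) and lower in 0 (median 0.18). HSPH1, a co-chaperone of HSP70, was at 154.7 to 162.1 CPM and at 219.9 to 229.9 CPM (0.51, SE 0.062, adjusted p = 4.32e-06), and DNAJA1 (0.44) and HSPA8 (0.31) also differed. These 3 were above CTRL sh with both hairpins.

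The mitochondrial genome encodes 13 subunits of the respiratory chain. Of these, 8 (61.5%) were higher and 0 were lower with CPSF1 sh2 than with CPSF1 sh1 (median 0.17). The share higher was 16.5% over all genes and 27.5% in the fifth of highest expression. The median of the 13 genes against CTRL sh was -0.26 with CPSF1 sh1 and -0.079 with CPSF1 sh2. Called against CTRL sh were 11 lower and 1 higher with CPSF1 sh1, and 5 lower and 1 higher with CPSF1 sh2. MT-ND6, the only one on the light strand, was at 91.8, 94.7 and 94.1 CPM with CPSF1 sh1 and at 187.6, 142.8 and 154.3 CPM with CPSF1 sh2 (0.79, SE 0.076, adjusted p = 2.31e-07). The other 7 genes called between the hairpins differed by 0.17 to 0.21. Of 74 nuclear genes of oxidative phosphorylation, 10 were higher and 6 lower (median 0.03), and of 85 cytosolic ribosomal proteins 9 were higher and 3 lower (median 0.03), shares near or below those of all genes.

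**Figure D2:**
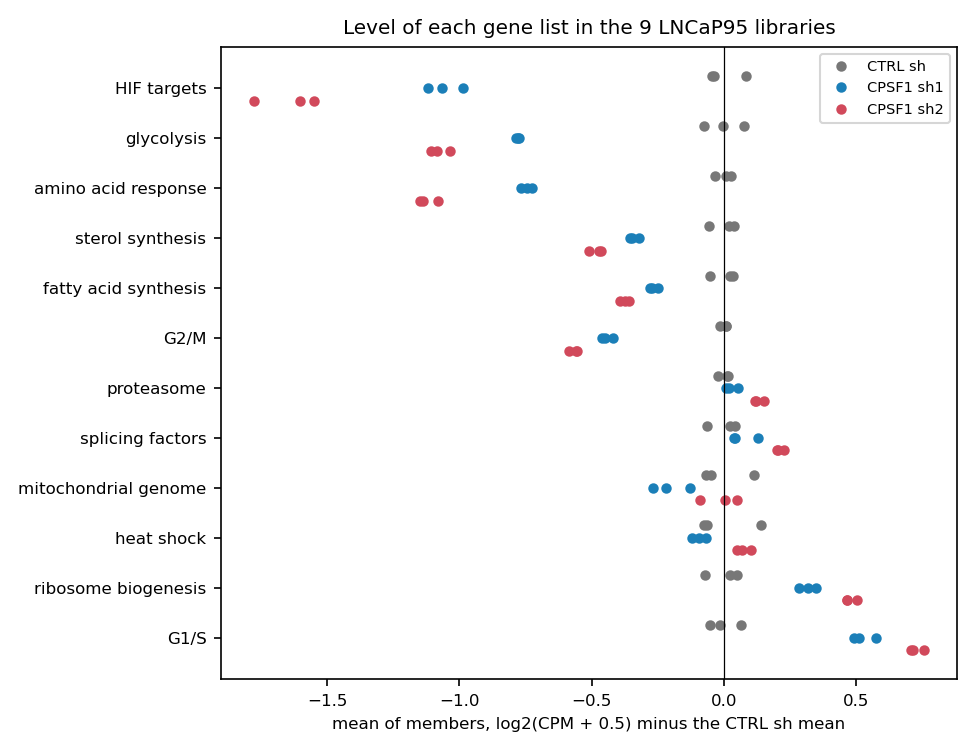
The x axis is the mean over list members of log2(CPM + 0.5) minus the CTRL sh mean, with 1 point per library for CTRL sh (grey), CPSF1 sh1 (blue) and CPSF1 sh2 (red). The CPSF1 sh2 libraries lie further from CTRL sh than the CPSF1 sh1 libraries for HIF targets, glycolysis, the amino acid response, sterol and fatty acid synthesis, G2/M, ribosome biogenesis and G1/S.

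The 12 genes with the largest rise with CPSF1 sh2 included secreted factors, receptors and transcription regulators. IGFBP3, which binds insulin-like growth factors outside the cell, led them (GRCh37, chromosome 7). It was at 46.2, 46.5 and 41.7 CPM with CTRL sh, at 76.2, 87.2 and 79.4 CPM with CPSF1 sh1 and at 414.4, 425.2 and 383.6 CPM with CPSF1 sh2. The groups did not overlap, and CPSF1 sh2 was 5.04-fold above CPSF1 sh1 (2.33, SE 0.053, adjusted p = 9.99e-18). Of the other 7 genes of the insulin-like growth factor axis tested, IGF2R, which clears IGF2, was 0.32 higher, and IGFBP2, IGFBP5, IGF1R, INSR, IRS1 and IRS2 did not pass the test. S1PR3, a receptor for sphingosine-1-phosphate, was at 25.8, 29.2 and 29.2 CPM with CPSF1 sh1, within the CTRL sh range of 24.9 to 29.8 CPM, and at 91.1, 89.7 and 94.98 CPM with CPSF1 sh2 (1.72, SE 0.067, adjusted p = 2.38e-13). S1PR3 was thus called against CTRL sh with CPSF1 sh2 alone. The same held for TMEM100, a transmembrane protein, at 22.7 to 25.8 CPM with CPSF1 sh1, and 52.1 to 53.9 CPM under CPSF1 sh2 (1.14, adjusted p = 4.99e-10), PRRT2 (1.02), the atypical chemokine receptor ACKR3 (1.01) and IL1RN, the interleukin-1 receptor antagonist (0.98), none of which was called against CTRL sh with CPSF1 sh1. The genes that were above CTRL sh with both hairpins and further with CPSF1 sh2 were IGFBP3, the hormone AMH (1.08), the transcription factor RUNX1 (0.99), the guidance molecules SEMA6D (0.99) and TENM2 (0.98), and NRP1 (0.97). NRP1, a co-receptor of semaphorins and vascular endothelial growth factor, was at 123.8 to 135.2 CPM with CPSF1 sh1 and at 247.4 to 265.0 CPM with CPSF1 sh2, against 43.7 to 49.1 CPM with CTRL sh.

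Among the 12 genes with the largest fall were ANKRD37, LOX and ALDOC, described above. FOS, a subunit of the AP-1 transcription factor, fell most, at 43.6 to 59.0 CPM with CTRL sh, at 15.3, 16.5 and 11.6 CPM with CPSF1 sh1 and at 4.09, 4.28 and 4.64 CPM with CPSF1 sh2 (-1.75, SE 0.17, adjusted p = 3.04e-07). C2orf54 was at 46.7 to 53.4 CPM with CPSF1 sh1, above the CTRL sh range of 44.5 to 45.4 CPM, and at 17.7 to 20.5 CPM with CPSF1 sh2 (-1.35, SE 0.073, adjusted p = 5.23e-11). The fall of C2orf54 was thus seen with CPSF1 sh2 and not with CPSF1 sh1. SCNN1G and SCNN1B, the gamma and beta subunits of the epithelial sodium channel, whose genes both lie on chromosome 16, fell together, by 1.21 (adjusted p = 1.03e-05) and 1.06 (adjusted p = 1.54e-05). SCNN1G was at 37.2, 44.1 and 28.7 CPM with CPSF1 sh1 and at 17.7, 19.1 and 10.7 CPM with CPSF1 sh2. CDKN1C, the cyclin-dependent kinase inhibitor p57, differed by -1.24 (SE 0.17, adjusted p = 1.38e-05). ASGR1 (-1.08), a subunit of the asialoglycoprotein receptor, ANKS1B (-1.06), MT1X (-1.06) and PADI2 (-1.04), an arginine deiminase, completed the 12. Apart from C2orf54 and MT1X, these genes lay below CTRL sh with both hairpins and further below it with CPSF1 sh2.

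**Figure D3:**
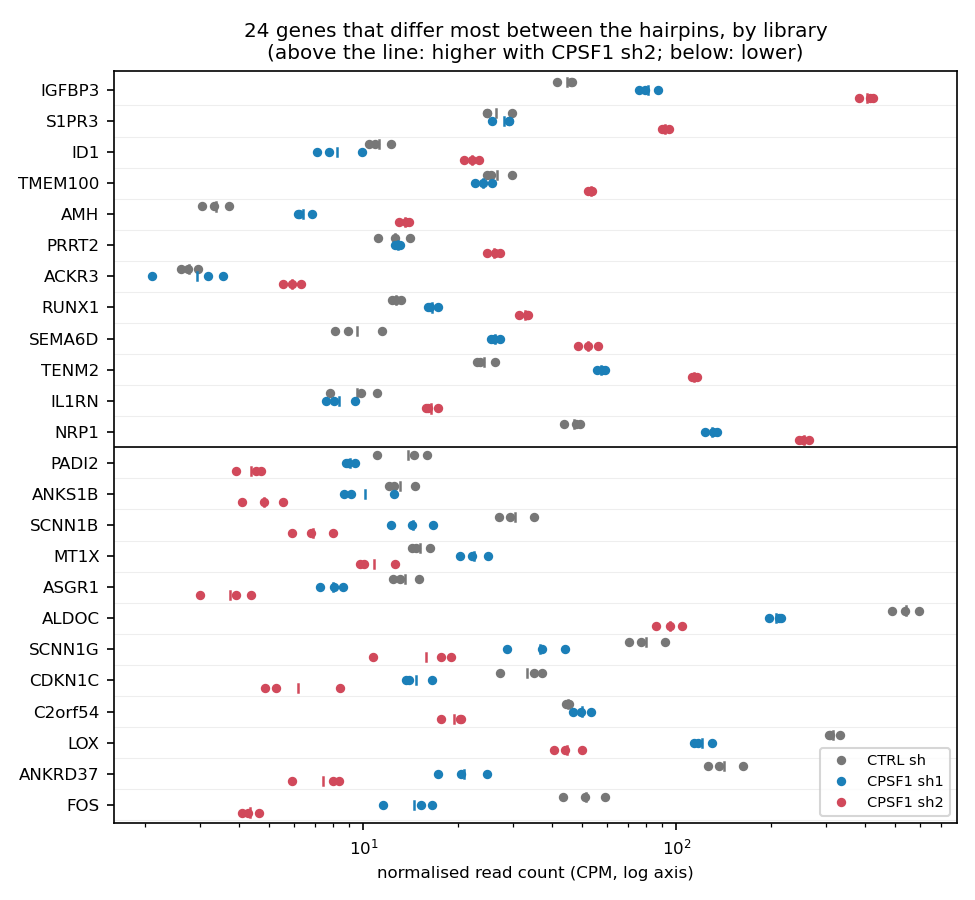
Normalised read counts in CPM on a log axis are shown for the 12 genes with the largest rise (above the line) and the 12 with the largest fall (below it), with a point per library, 3 per group, and a bar at the group mean. IGFBP3 sits at 383.6 to 425.2 CPM with CPSF1 sh2 and at 76.2 to 87.2 CPM with CPSF1 sh1, and FOS at 4.09 to 4.64 CPM and 11.6 to 16.5 CPM.

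The hairpins moved 25 genes in opposite directions from CTRL sh, each direction being called, and metallothioneins and ID genes were among them. Metallothioneins are small proteins that bind zinc and copper and are induced by metals. All 3 members tested were lower with CPSF1 sh2. MT1X was at 14.2 to 16.4 CPM with CTRL sh, at 22.3, 25.1 and 20.3 CPM with CPSF1 sh1 and at 9.76, 10.0 and 12.6 CPM with CPSF1 sh2, so that CPSF1 sh1 lay above CTRL sh (0.59, adjusted p = 3.02e-05) and CPSF1 sh2 below it (-0.48, adjusted p = 0.0011). MT2A differed by -0.68 (SE 0.058, adjusted p = 4.43e-08) and was likewise above CTRL sh with CPSF1 sh1 and below it with CPSF1 sh2. MT1G differed by -0.95 (SE 0.15, adjusted p = 6.04e-05). Metallothionein genes are related in sequence and lie on chromosome 16, so some reads may have been split between them. KCNC2, a potassium channel (-0.97), MGAT4A, a glycosyltransferase (-0.70), and RDM1 (-0.66) were also above CTRL sh with CPSF1 sh1 and below it with CPSF1 sh2.

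ID1, an inhibitor of basic helix-loop-helix transcription factors that is induced by bone morphogenetic proteins (BMP), went the other way. It was at 10.4 to 12.3 CPM with CTRL sh, at 7.76, 9.91 and 7.10 CPM with CPSF1 sh1 and at 22.2, 23.4 and 20.9 CPM with CPSF1 sh2 (1.42, SE 0.11, adjusted p = 8.72e-09). ID3 was at 37.2 to 39.7 CPM with CPSF1 sh1 and at 55.3 to 64.2 CPM with CPSF1 sh2, on either side of 44.0 to 51.0 CPM with CTRL sh (0.62, SE 0.067, adjusted p = 8.55e-07). NFKBIZ, a nuclear regulator of NF-kB (0.86, adjusted p = 7.38e-07), and ATP6V0D1, a subunit of the vacuolar proton pump (0.48, adjusted p = 5.46e-07), had the same order. The wider list of 17 genes of transforming growth factor beta (TGF-beta) and BMP signalling had 7 higher (41.2%) and 4 lower (23.5%) members. Over all genes 16.5% were higher and 17.7% lower. Beside ID1 and ID3, the inhibitory SMAD6 was 0.61 higher (SE 0.11, adjusted p = 2.16e-04) and ID2 0.58 higher, where ID2 lay below CTRL sh with both hairpins. The ligands TGFB2 and TGFB3, which were under 2 CPM in at least 1 library and are not among the 17, were also called higher. TGFB3 was at 0.52 to 1.10 CPM with CTRL sh, at 2.36, 3.24 and 2.83 CPM with CPSF1 sh1 and at 15.4, 12.5 and 12.9 CPM with CPSF1 sh2 (2.27, SE 0.15, adjusted p = 6.95e-10). The lower members of the 17 were the ligand BMP6 (-0.47), the receptors TGFBR1 (-0.37) and BMPR1A, and SMAD4.

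Other regulators differed member by member. Of 18 AP-1 and immediate early genes, 5 (27.8%) were lower and 3 (16.7%) were higher, where 17.7% and 16.5% of all genes were. The called members ran from FOS (-1.75), JUND (-0.64) and the phosphatase DUSP4 (-0.53) to KLF4 (0.48). Of 15 epithelial and mesenchymal genes, 6 were lower and 5 were higher. The transcription factor SNAI2 (0.89, adjusted p = 4.17e-08), the matrix protein fibronectin FN1 (0.60, adjusted p = 3.34e-09) and the filament protein VIM (0.42) were higher, and SNAI1 (-0.68) and the tight junction genes CLDN3 (-0.55) and OCLN (-0.42) were lower, while CDH1 (-0.01) did not pass the test. FN1 was at 1796 to 1851 CPM with CPSF1 sh1 and at 2714 to 2838 CPM with CPSF1 sh2. Genes of the androgen response were called in both directions, with 7 (33.3%) lower and 6 (28.6%) higher of 21 tested. TMPRSS2, an androgen-induced protease, was at 371.2 to 407.0 CPM with CPSF1 sh1 and at 248.9 to 268.4 CPM with CPSF1 sh2 (-0.60, SE 0.045, adjusted p = 5.70e-09). ELL2, an elongation factor, was at 155.8 to 167.2 CPM and at 246.3 to 256.9 CPM (0.62, SE 0.043, adjusted p = 2.36e-09).

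Genes that handle the hairpins, and those that sense foreign RNA, were compared since both hairpins are made as RNA. Of 13 genes of small RNA processing and silencing, 1 was higher and 2 were lower (7.69% and 15.4%, where 16.5% and 17.7% of all genes were). DGCR8, the partner of DROSHA, was at 45.7 to 50.6 CPM with CPSF1 sh1 and at 64.7 to 67.9 CPM with CPSF1 sh2 (0.48, SE 0.066, adjusted p = 1.94e-05). AGO4 (-0.55, adjusted p = 1.62e-07) and AGO3 (-0.22, adjusted p = 0.026, with overlapping libraries) were lower, and AGO2, the Argonaute that cuts its target, did not pass the test (0.15, adjusted p = 0.051). Neither did DROSHA (0.03), DICER1 (0.09), XPO5 (-0.0029) or TARBP2 (0.03). Of 20 interferon-induced genes and RNA sensors, 2 were higher (OAS1 by 0.67, adjusted p = 0.0019, and OAS3 by 0.25) and 2 were lower (USP18 by -0.31 and STAT2 by -0.25), a share of 10.0% in each direction that is below that of all genes. In class I antigen presentation, 5 of 14 genes (35.7%) were lower and 1 (7.1%) was higher. HLA-B was at 50.2 to 55.0 CPM with CPSF1 sh1 and at 35.0 to 40.8 CPM with CPSF1 sh2 (-0.51, adjusted p = 7.10e-06) and HLA-F differed by -0.57, with the caveat that reads may be shared among related genes. B2M, their common light chain, was 0.19 higher.

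Of 20 cleavage and polyadenylation factors, CPSF1 among them, 7 (35.0%) were higher and 2 (10.0%) were lower with CPSF1 sh2. Over all genes 16.5% were higher and 17.7% lower. CPSF7, a subunit of cleavage factor I, was at 177.3 to 184.4 CPM with CPSF1 sh1 and at 221.0 to 222.1 CPM with CPSF1 sh2, on either side of 190.8 to 204.6 CPM with CTRL sh (0.30, SE 0.040, adjusted p = 1.34e-05). PABPN1, the nuclear poly(A)-binding protein, was 0.28 higher and WDR33, which binds the poly(A) signal, 0.26 higher. NUDT21, the partner of CPSF7 in cleavage factor I (-0.13, adjusted p = 0.030), and the poly(A) polymerase PAPOLG (-0.26, adjusted p = 0.029) were lower. The other CPSF subunits CPSF2 (-0.05), CPSF3 (-0.02), CPSF4 (0.01) and FIP1L1 (0.11) did not pass the test.

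The 18 genes of the unfolded protein response had 3 higher and 3 lower members, and the 19 lysosome and autophagy genes 4 and 4. The 14 BCL2 family genes had 3 and 3, and the 17 genes of pyruvate entry and the TCA cycle 3 and 3. These are 16.7% to 21.4% of members in each direction, where 16.5% of all genes were higher and 17.7% lower. Within the BCL2 family, the pro-apoptotic BBC3 was at 17.2 to 24.7 CPM with CPSF1 sh1 and at 11.0 to 13.8 CPM with CPSF1 sh2 (-0.80, SE 0.13, adjusted p = 7.62e-05), while BAX, another pro-apoptotic member, was 0.35 higher. The 1677 genes with an expressed gene ending up to 10 kb upstream on the same strand, which could receive reads from that gene's unterminated transcripts, had 299 higher and 277 lower members and a median of -0.0011. The 344 genes spanning over 300 kb had 57 and 52. Zinc finger genes named ZNF on chromosome 19 had 8 higher and 16 lower of 175. Histone genes had 3 higher and 6 lower of 16, and targets of NRF2, the regulator of antioxidant genes, had 1 and 3 of 12.

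By chromosome, the share of genes higher ran from 12.6% on chromosome 19 to 20.8% on chromosome 18, and the share lower from 13.5% on chromosome 19 to 22.97% on chromosome 15, leaving out the 13 mitochondrial genes. By the GC content of exons, split into 5 bins of 2226 genes, the bin of lowest GC had 12.2% higher and 19.2% lower, the middle bin 20.3% and 15.3%, and the bin of highest GC 13.25% and 18.1%. By mean expression, the share higher went from 8.52% in the 2229 genes of lowest expression to 27.5% in the 2228 of highest expression, whereas the share lower stayed between 15.25% and 19.4%.

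Genes that passed a lower expression filter (edgeR's filterByExpr) but not 2 CPM in all 9 libraries were described apart. Of 1854 such genes, 525 (28.3%) were called, 422 higher and 103 lower with CPSF1 sh2. A gene that passes because it is expressed in the group where it is high has to differ, so the excess of rises is given as a description. Of the 422, 371 stayed under 2 CPM in all CTRL sh libraries and 208 in all CPSF1 sh1 libraries, and the median gene had a mean level of 0.44 CPM in CTRL sh cells, 1.78 CPM in CPSF1 sh1 cells and 3.495 CPM in CPSF1 sh2 cells. The largest rises were WNT11, KRT36, TTN, UBE2U and DAPK1. WNT11, a Wnt ligand, was at 0.060, 0.14 and 0.23 CPM with CPSF1 sh1 and at 1.83, 1.86 and 1.70 CPM with CPSF1 sh2 (3.64, SE 0.42, adjusted p = 1.25e-06), a fitted value that depends on the prior count since the CPSF1 sh1 libraries held 1 to 3 counts. TTN, the giant protein titin of muscle, was at 0.54 to 0.69 CPM and at 4.57 to 5.58 CPM (2.94, SE 0.25, adjusted p = 1.49e-08). DAPK1, a death-associated kinase, was at 0.14 to 0.69 CPM with CPSF1 sh1, at 0.50 to 1.00 CPM with CTRL sh and at 2.02 to 3.20 CPM with CPSF1 sh2 (2.64, adjusted p = 9.13e-06). The hair keratin KRT36 (3.12) and the ubiquitin-conjugating enzyme UBE2U (2.69) had 3 libraries each at no more than 3.23 and 1.86 CPM with CPSF1 sh2. Large falls were those of GAGE2B (-3.48), GAGE2E (-2.20), AGXT (-2.05) and C1QTNF1 (-1.94). The GAGE genes are near-identical copies on the X chromosome, and their values are uncertain since reads may be split between copies.

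The same hairpins were compared in LNCaP and 22Rv1 cells, whose libraries are not shared with those of LNCaP95, to see which differences went with the hairpin in other cells. CPSF1 itself differed by -0.14 in LNCaP (SE 0.053, adjusted p = 0.077) and by 0.067 in 22Rv1 (SE 0.069, adjusted p = 0.58). Between the hairpins, 14.8% of genes tested were called in LNCaP and 11.3% in 22Rv1. Of the 1765 genes higher in LNCaP95 that were also tested in LNCaP, 189 (10.7%) were called higher and 125 (7.1%) lower there. Of the 1867 lower in LNCaP95, 278 (14.9%) were called lower and 148 (7.9%) higher in LNCaP. Of all genes tested in both of these lines, 6.6% were called higher and 8.2% lower in LNCaP. In 22Rv1, 194 of 1762 (11.0%) were called higher and 39 (2.2%) lower, and 232 of 1829 (12.7%) were called lower and 55 (3.0%) higher. Of all genes tested in LNCaP95 and 22Rv1, 5.2% were called higher and 5.4% lower in 22Rv1. Across genes, the differences in LNCaP95 had a Pearson correlation of 0.11 with those in LNCaP (10686 genes) and of 0.23 with those in 22Rv1 (10514 genes), and genes are not independent replicates. A test of the difference itself (an interaction term in a fit of all 27 libraries, 10317 genes) called 2065 genes (20.0%) between LNCaP95 and LNCaP and 1869 genes (18.1%) between LNCaP95 and 22Rv1.

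Cholesterol genes had more members lower than higher with CPSF1 sh2 in all 3 lines. In that list, 18 of 25 genes were lower in LNCaP and 20 of 25 in 22Rv1, with 0 higher in either, and the medians were -0.18 and -0.25 beside -0.09 in LNCaP95. Of 10317 genes tested in all lines, 87 were called lower and 35 higher in all 3, and cholesterol and fatty acid genes were among the 87, such as STARD4 (-0.87 in LNCaP95, -0.64 in LNCaP and -0.49 in 22Rv1), TM7SF2 (-0.46, -0.45 and -0.48), INSIG1 (-0.83, -0.17 and -0.49) and SCD (-0.49, -0.26 and -0.53). By the smallest of the 3 differences, NMB, KLHL28 and FAM211B also led the genes that were lower, at -0.76, -0.94 and -0.59 in LNCaP95, and SERPINE2, PHLDA1, NRP1, KCNAB3 and FN1 led those that were higher. SERPINE2, an inhibitor of serine proteases, differed by 0.73, 0.57 and 0.48, and FN1 by 0.60, 0.33 and 1.19. NRP1 differed by 0.97, 0.37 and 0.47. MT-ND6 was also among the 35, at 0.79, 0.29 and 0.37.

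HIF targets had 8 members higher and 1 lower in LNCaP (25 tested, median 0.14) and 0 higher and 4 lower in 22Rv1 (24 tested, median -0.10). By the interaction test, the difference in LNCaP95 was below that in LNCaP for 17 of 23 members and below that in 22Rv1 for 15 of 23, and above it for 0 in both. In the amino acid response, 11 of 21 genes were higher in LNCaP (median 0.21), and 20 of 21 had a difference in LNCaP95 below that in LNCaP. G2/M genes were higher in LNCaP in 21 of 29 (median 0.20), and 24 of 29 differed between LNCaP95 and LNCaP. G1/S genes were higher in LNCaP in 18 of 37 (median 0.15) but lower in 22Rv1 in 8 of 37 (median -0.09), and 27 of 37 differed between LNCaP95 and 22Rv1, all with the higher value in LNCaP95. Metallothioneins were higher with CPSF1 sh2 in 22Rv1 for all 3 members (median 0.64). All 13 mitochondrially encoded genes but MT-ND6 were lower in LNCaP (median -0.22).

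**Figure D4:**
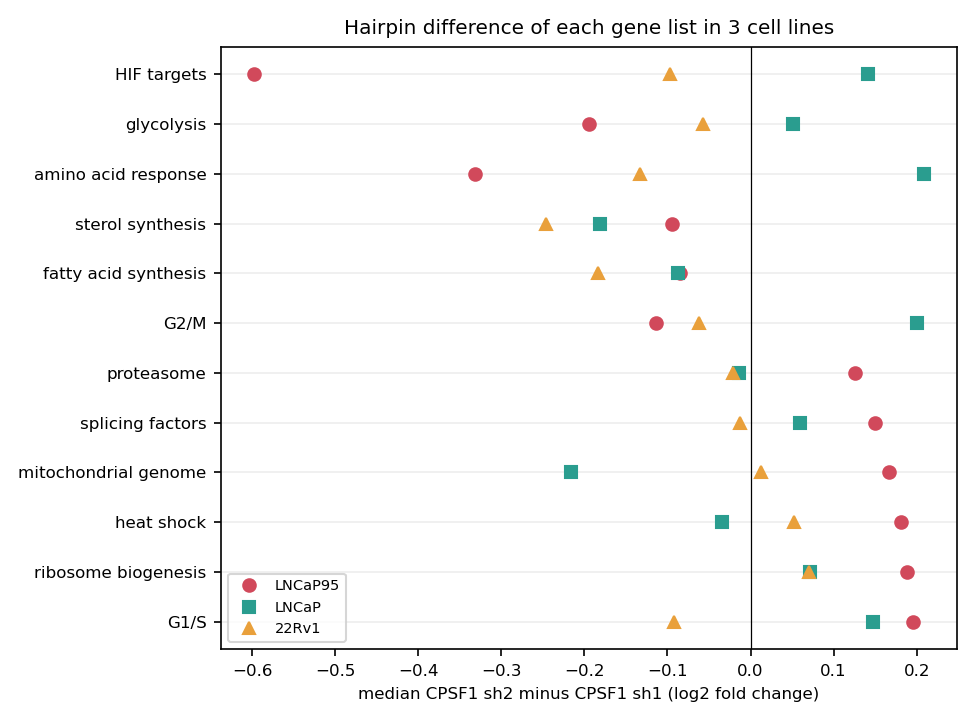
The x axis gives the median CPSF1 sh2 minus CPSF1 sh1 log2 fold change of the tested members of each list on the y axis, in LNCaP95 (red circles), LNCaP (green squares) and 22Rv1 (orange triangles). HIF targets stand at -0.60, 0.14 and -0.10, and cholesterol genes lie below 0 in all 3 lines.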

How the data were processed

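RNA of 27 libraries (3 prostate cancer lines, 3 hairpin conditions, 3 biological replicates each) was made into strand-specific poly(A) libraries. The authors aligned reads with HISAT2 (2.1.0) to GRCh37 and counted reads per gene with featureCounts (Subread 2.0.3 in the submitters' processing notes), and the deposited values are raw counts per protein-coding gene symbol.

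From these counts, TMM-normalised CPM and edgeR (4.0.16, R 4.3.3) quasi-likelihood tests were computed on the 9 LNCaP95 libraries, for genes over 2 CPM in all 9, with Benjamini-Hochberg adjustment and a threshold of 0.05. Genes that passed only filterByExpr (minimum count 10) were taken from a second fit. That fit held all 12997 genes that passed filterByExpr, and p-values were adjusted over all of these. Differences between cell lines were tested as interactions in all 27 libraries. The steps were tested on simulated data. LNCaP95 libraries held 10697514 to 15904518 counts. With 3 libraries per group the biological coefficient of variation was 3.87%. The p-values measure the spread between these replicates, which the labels call biological.

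Genes were named by a rule: CPSF1, the 12 largest called rises and falls without overlap (5 each among low genes), up to 3 called members per list and direction, members needed for a pathway's account, and the genes that moved in opposite directions or differed alike or oppositely between lines by the largest amounts. Members and lists were chosen with earlier results of these data known. Promoters came from RefSeq (GRCh38.p14). Alternatives were other filters, scalings, sample sets, a replicate block, DESeq2 (1.42.0), thinned counts and leaving out each library. A few genes that these rules name are not reported here.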

Additional observations from a re-analysis of the deposited data

Results flagged for a closer look

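The difference between the hairpins was not the same in the 3 cell lines, by the interaction test in all 27 libraries. It differed between LNCaP95 and LNCaP in 2065 genes and between LNCaP95 and 22Rv1 in 1869 genes. Among the genes with the largest differences in LNCaP95, IGFBP3 stood 2.81 above LNCaP and 1.45 above 22Rv1 on the log2 scale, AMH 0.89 and 1.26 above, and NRP1 0.60 and 0.50 above. PRRT2 stood 1.11 above 22Rv1. ALDOC differed by -0.90 from LNCaP and by -0.61 from 22Rv1.

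Some genes were called in the opposite direction in another line. IGFBP3 was higher with CPSF1 sh2 in LNCaP95 and in 22Rv1 (0.88, adjusted p = 1.20e-07) and lower in LNCaP (-0.48, adjusted p = 4.91e-05). MT1X differed by -1.24 from LNCaP and by -1.71 from 22Rv1, and MT1G by -0.60 and -1.83. CAPN5, a calpain protease, differed by -1.27 and -0.76. RTN1, a reticulon of the endoplasmic reticulum, stood 1.19 and 0.88 above LNCaP and 22Rv1, and PTPN21, a tyrosine phosphatase, 1.21 and 0.91 above.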

How the results depend on the processing

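The difference in CPSF1 was near 0 and never called, and its sign turned with 2 CPM required in the 6 CPSF1 sh libraries (-0.00092), all 27 libraries (-0.0020), filterByExpr (-0.0064), library size alone (-0.022), no filter (-0.020) and thinned counts (-0.0072), and ran from -0.046 to 0.092 when single libraries were left out. Leaving out single libraries, so that fewer samples were fitted each time, gave 1220 to 2089 higher and 1379 to 2235 lower genes. The lowest counts came without CPSF1 sh2 replicate 3, whereas leaving out CTRL sh replicate 1 or replicate 2 raised the counts in both directions. Requiring over 2-fold left 7 and 15. Library size alone gave 1451 higher and 2285 lower genes, so that 38.8% of calls were higher instead of 48.25%, and shifted the median of all genes to -0.026. DESeq2 gave 1539 and 1509. In each alternative, 0 shared calls changed sign. The replicate block gave 1829 and 1960, a CPSF1 difference of 0.0089, and deviations of same-numbered libraries correlated at -0.026, 0.036 and 0.19, with not every library closest to its own number, so the numbers were not taken as pairs. Medians of 9 lists changed sign, all near 0, among them small RNA processing, interferon, histones, epithelial and mesenchymal genes and the unfolded protein response.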

Other observations

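Further groups held members with large differences between the hairpins. HMOX1, the heme oxygenase of the antioxidant response, differed by -0.81 (adjusted p = 1.69e-06, edgeR), while NQO1 differed by -0.20 and PGD was 0.19 higher with CPSF1 sh2. PIM1, a survival kinase, differed by -0.86 (adjusted p = 4.79e-05), GADD45B, a stress gene, by -0.86 (adjusted p = 0.0011) and CISH, an inhibitor of cytokine signalling, by -0.62 (adjusted p = 0.0032). In this list of PIM kinases, GADD45 and SOCS genes, 4 of 12 tested members (33.3%) were lower and 1 (8.3%) was higher. Over all genes 17.7% were lower and 16.5% higher.

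NNMT, which methylates nicotinamide, is one of the genes under 2 CPM in at least 1 library. It was 0.99 higher (adjusted p = 6.61e-07 in the fit of all genes that passed filterByExpr). DDR2, a collagen receptor, was 0.70 higher (adjusted p = 2.48e-06), whereas DDR1, its epithelial relative, differed by -0.29 (adjusted p = 5.40e-04). Among lysosome and autophagy genes, MCOLN1, a lysosomal calcium channel, was 0.58 higher and LAMP1, a lysosomal membrane protein, 0.41 higher, whereas WIPI1 (-0.57) and GABARAPL1 (-0.44), which act in autophagosome formation, were lower. UGT2B10 was 0.52 higher and UGT2B17, which glucuronidates androgens, differed by -0.25. The UGT2B genes are close copies, so their reads may be shared.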
